A study of Mus musculus with 4 samples.

Results

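Follicular B cells put peptides on their surface with the help of a small set of genes, and 10 of these MHC class II presentation genes were followed here in the RNA of B cells with and without Ets1. The genes are H2-Aa, H2-Ab1, H2-Eb1, H2-DMa, H2-DMb1, H2-DMb2, H2-Oa, H2-Ob, Cd74 and Ciita. They were chosen by name, and all 10 were among the 23305 genes with a single value in every library. Quiescent follicular B cells had been sorted from the spleens of female mice by flow cytometry, on B220, high CD23 and low CD21, leaving out cells with the activation marker CD80 or a switched antibody isotype, and their total RNA was sequenced. There were 2 libraries from wild-type (WT) mice of strain C57BL/6 and 2 libraries from Ets1-/- mice of strain C57BL/6 x 129Sv. The methods call the libraries of a genotype biological replicates, without giving the mice behind each library or their age. The Ets1 mutation is not limited to B cells, so these cells had also developed in mice without intact Ets1, and strain and genotype cannot be told apart. The labels give no H2 haplotype. In bulk RNA, fewer cells of a type and less RNA per cell cannot be told apart either.

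MHC class II molecules are pairs of an alpha and a beta chain that carry peptides from endosomes to the cell surface, where CD4 T cells read them. H2-Aa and H2-Ab1 encode the I-A pair and H2-Eb1 encodes the beta chain of the I-E pair, whose alpha chain comes from the gene H2-Ea. Cd74 encodes the invariant chain, which escorts new class II molecules and blocks their groove. H2-DM, made of H2-DMa with H2-DMb1 or H2-DMb2, removes the last piece of the invariant chain and edits the bound peptides, and H2-O, made of H2-Oa and H2-Ob, holds H2-DM back in B cells. Ciita encodes the coactivator that switches the whole set on. It does not bind DNA itself but is recruited to the promoters by factors on the X and Y boxes, among them the RFX complex and NF-Y. H2-Aa and H2-Eb1 had been described as Ets1 targets, so the comparison of the genotypes asks how these genes are expressed in resting B cells when Ets1 is disrupted.

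The shared promoter elements could be read for most of the set. Of the 10 genes, 7 had an entry in the RefSeq promoter table (GRCm38.p6), which holds 250 bases before and 50 bases after the start of a gene. H2-Ab1, Cd74 and Ciita had no entry. Searches were made for GCAAC (a core of the X box), ATGATG (a core of the X2 box) and ATTGG (the Y box core), on both strands. A GCAAC or ATGATG that lay 10 to 40 bases before an ATTGG on the strand of the gene was found in 6 of the 7 genes, and in 0.895% of the 32851 promoters of the table. The stretches that hold this pair are shown because factors on X and Y boxes recruit Ciita. The capitals mark the letters searched for, which did not overlap one another.
H2-Aa (chr17:34287859-34287919, minus strand): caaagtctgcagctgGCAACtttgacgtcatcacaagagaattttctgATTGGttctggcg
H2-Eb1 (chr17:34305761-34305820, plus strand): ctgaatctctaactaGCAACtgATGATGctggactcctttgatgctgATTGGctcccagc
H2-DMb1 (chr17:34153089-34153142, plus strand): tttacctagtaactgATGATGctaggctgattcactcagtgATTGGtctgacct
H2-DMb2 (chr17:34145118-34145171, plus strand): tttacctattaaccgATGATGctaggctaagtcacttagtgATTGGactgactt
H2-Oa (chr17:34092288-34092348, plus strand): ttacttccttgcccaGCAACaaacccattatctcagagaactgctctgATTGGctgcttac
H2-Ob (chr17:34238803-34238860, plus strand): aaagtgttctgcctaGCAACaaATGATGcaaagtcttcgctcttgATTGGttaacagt

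In these 6 stretches the first marked letters of the X and Y elements were 26 to 33 bases apart, and the ATTGG began 43 to 90 bases before the start of the gene. H2-DMb1 and H2-DMb2 carried the ATGATG without the GCAAC, H2-Aa and H2-Oa the GCAAC without the ATGATG, and H2-Eb1 and H2-Ob both. H2-DMa had 2 promoter entries, and neither held the pair. GCAAC alone was present in 35.2% of all promoters, ATGATG in 11.2% and ATTGG in 37.4%, so a single match is common. A match describes the letters only, and binding of factors to these letters was not examined here. For Ets1 itself, the paper's ChIP-seq of wild-type splenic B cells found binding sites in the promoter and nearby regions of H2-Aa and H2-Eb1. Those sites were not compared with the stretches above.

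Before the comparison, the libraries themselves need a short account. Expression was deposited as FPKM, which is a count of fragments scaled to the length of the gene and to the size of the library, and no read counts were used here. Judged from the lowest values, WT replicate 2 was about 1.75 times as deep as WT replicate 1, and the Ets1-/- libraries 1.67 and 0.876 times as deep. Ets1 itself, from which part of the transcript is deleted in these mice, was at 231 and 275 FPKM in WT and at 229 and 229.8 FPKM in Ets1-/- cells, so its level does not check the labels. B cell genes were high in every library, the 10 listed ones summing to between 6488 and 7803 FPKM. RNA of genes used as markers of other cells was measured as well, and whether it came from other cells or from the sorted B cells was not tested. Markers of dendritic cells and macrophages, 14 genes, summed to 60.5 and 32.5 FPKM in WT and to 147 and 99.7 FPKM in Ets1-/- libraries, replicate 1 given before replicate 2 here and throughout, with Zbtb46, Clec9a, Xcr1, Batf3 and Cd14 below 1 FPKM throughout. Of the 8 tested, Emr1 and Cd209a were called higher. Neutrophil granule genes, 8 in all, summed to 108 and 89.4 FPKM in WT replicates 1 and 2 and to 2456 and 673 FPKM in Ets1-/- replicates 1 and 2, and Ngp, Camp and Ltf of them were called higher. T cell markers summed to between 73.6 and 91.4 FPKM, with Thy1 of the 8 called lower. By the same rule, given below, 1.70% of all genes tested were called. Dendritic cells and macrophages express class II genes, and their part in the values below was not tested.

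Ets1-/- replicate 2 stood apart in the H2 region itself. Of 20599 annotated genes with at least 200 exon bases, 7 were at least 4-fold higher there than in each of the other 3 libraries on the log2(FPKM + 1) scale, and all 7 lay on chromosome 17. Of these, 6 were within 2 Mb of H2-Ea-ps, a window that holds 189 of the genes, and H2-M2 lay 3.14 Mb away. H2-Ea-ps is itself 1 of these 6, and the window was centred on it after values were seen. By the same 4-fold measure no gene, 0 of 20599, stood above the others in either WT library, and 4 genes did in Ets1-/- replicate 1, none of them within the window. In the lower direction 1 gene stood apart, in Ets1-/- replicate 2 and outside the H2 region. This was Eps8l1 on chromosome 7, at 12.8 and 11.2 FPKM in WT and at 21.9 and 0.0693 FPKM in Ets1-/- cells. The gene at the centre of the window is a class II gene. H2-Ea-ps, the symbol under which the annotation lists H2-Ea (chromosome 17, 34478897 to 34481589, minus strand, mm9), was at 1.05 FPKM in WT replicate 1 and 0.185 FPKM in WT replicate 2. It was at 0.632 FPKM in Ets1-/- replicate 1 and at 2795 FPKM in Ets1-/- replicate 2, which is 2651 times the highest of the other 3 values. This gene is inactive in mice of the b haplotype, which C57BL/6 carries, through a deletion in its promoter, and active in several other haplotypes. The haplotype of the other strain in the Ets1-/- background is not given by the labels. Whether either strain accounts for the level in Ets1-/- replicate 2 was not tested. With 2795 FPKM H2-Ea-ps ranked 72 among all genes in that library and reached 0.930 times the level of H2-Eb1, its partner chain. The genotype means on the log2(FPKM + 1) scale were 5.44 apart (standard error 3.38), and limma gave an adjusted p of 0.639 (Benjamini-Hochberg), with 1 of the 2 Ets1-/- libraries at the WT level. Without Ets1-/- replicate 1 it was called (10.81, adjusted p = 0.0153 from limma), and without Ets1-/- replicate 2 it was too low to be tested. The other genes of this group were Gm8909, H2-Q2, H2-Q10, Gm11127, Msh5 and H2-M2, at 5.79 to 97.8 FPKM in that library and at 7.67 FPKM or less in the others. Because of this, the differences of the class II genes are also given without Ets1-/- replicate 2. Whether the libraries carry different H2 haplotypes was not tested.

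**Figure D1:**
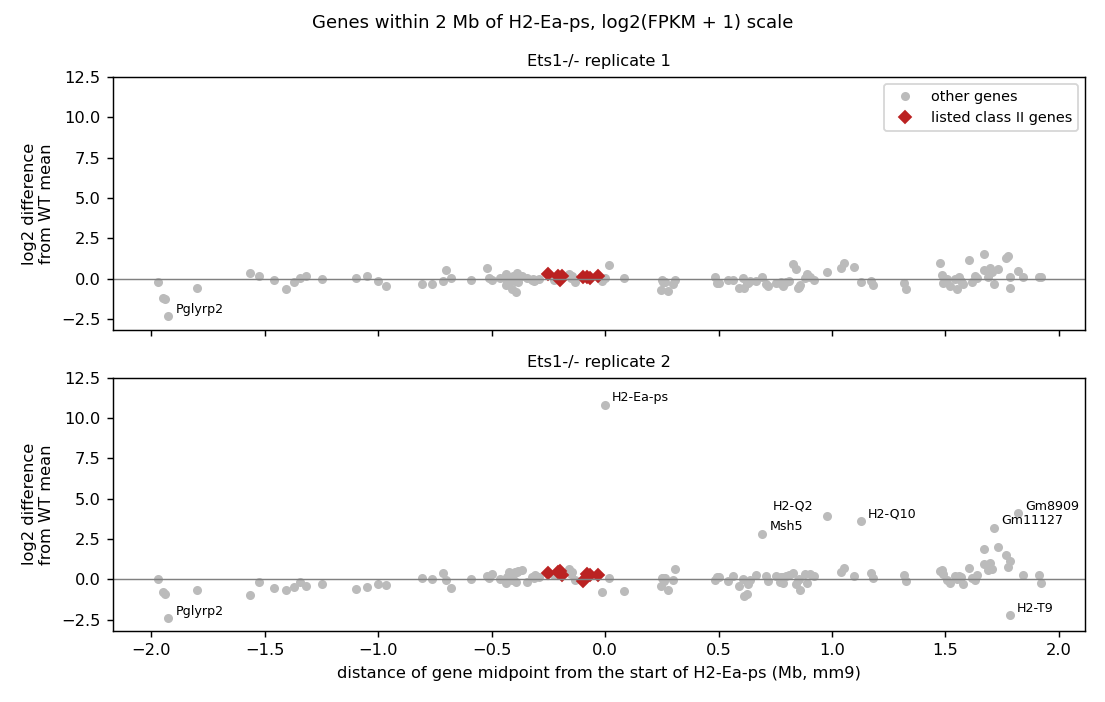
Difference of each Ets1-/- library from the WT mean on the log2(FPKM + 1) scale (y axis) for genes within 2 Mb of the start of H2-Ea-ps, by distance in Mb (x axis), with the listed class II genes as red diamonds and all other genes as grey points. H2-Ea-ps is at 2795 FPKM in Ets1-/- replicate 2 and at 0.632 FPKM in Ets1-/- replicate 1, while the listed class II genes lie close to the line at 0 in both panels.

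None of the class II presentation genes changed past the thresholds in the absence of Ets1. The comparison used limma on log2(FPKM + 1) for the 10949 genes with a mean of at least 1 FPKM in either genotype, and a gene was called where the genotypes differed by 1 or more on that scale, in either direction, at a Benjamini-Hochberg adjusted p of 0.05 or less. The difference of the means, Ets1-/- minus WT, is called the log2 difference. By this rule 0 of the 10 genes were called, beside 1.70% of all genes tested, and their adjusted p-values lay between 0.523 and 0.998. At an unadjusted p under 0.05 the count was also 0 of 10, beside 13.3% of all genes tested. The log2 differences lay between -0.01 and 0.34 with a median of 0.21, while the median over all genes tested was -0.02 and over the 856 tested genes with a mean of at least 100 FPKM it was 0.12. A p above the threshold does not show equal expression, so the 95% confidence intervals are given too. For 9 of the 10 genes the interval lay between -1 and 1, and the interval of Cd74 reached from -0.66 to 1.09.

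**Figure D2:**
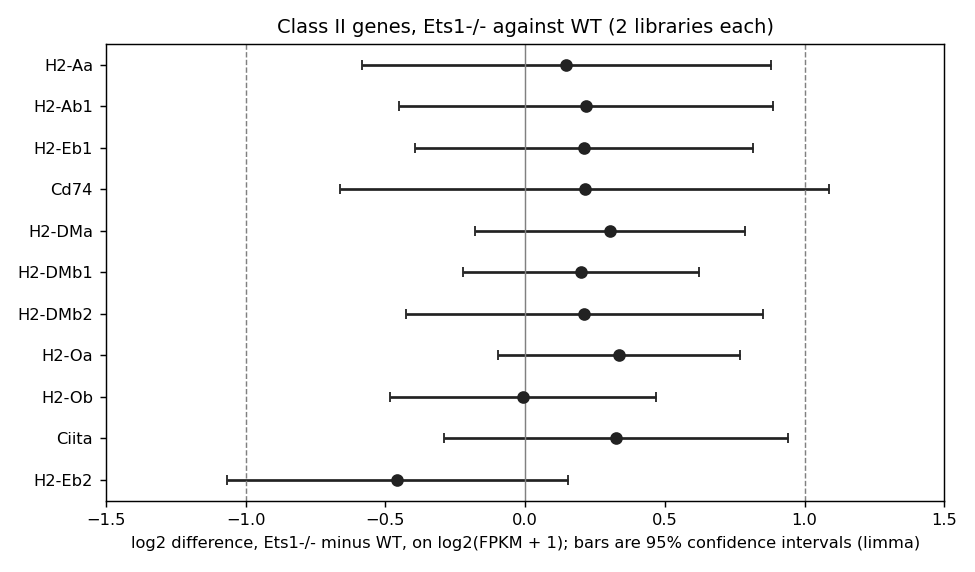
Log2 difference of Ets1-/- against WT B cells on the log2(FPKM + 1) scale (x axis) with 95% confidence intervals from limma, for the 10 class II genes and H2-Eb2 (y axis). All 10 intervals include 0, and dashed lines mark the 2-fold limits at -1 and 1, passed only by the intervals of Cd74 and H2-Eb2.

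The classical chains were among the most abundant transcripts of these cells. H2-Aa (chromosome 17, 34406276 to 34424772, minus strand, mm9), the alpha chain of I-A, was at 5404 and 5412 FPKM in the WT libraries and at 5532 and 6489 FPKM in the Ets1-/- libraries. The WT libraries were nearly identical, and both Ets1-/- libraries lay above them. The means were 5408 ± 6.25 FPKM (SD, n = 2) and 6010.1 ± 677 FPKM (SD, n = 2), a ratio of 1.11. The log2 difference of H2-Aa was 0.15 (95% confidence interval -0.58 to 0.88, adjusted p = 0.920 from limma), and it was 0.03 without Ets1-/- replicate 2.

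H2-Ab1 (chromosome 17, 34400154 to 34406363, plus strand), the beta chain of I-A, was at 3515 and 3638 FPKM in WT and at 3869.55 and 4472 FPKM in Ets1-/- cells. Again the genotypes did not overlap and Ets1-/- replicate 2 was the highest. Its log2 difference was 0.22 (95% confidence interval -0.45 to 0.89), with an adjusted p of 0.853 from limma, and 0.11 without Ets1-/- replicate 2. In the GENCODE M1 annotation H2-Aa and H2-Ab1 overlap by 88 bases at their ends on opposite strands, so fragments there cannot be told apart without strand.

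H2-Eb1 (chromosome 17, 34442828 to 34453144, plus strand), whose partner H2-Ea-ps was near 0 in 3 libraries, was itself at 2451.5 and 2516 FPKM in WT and at 2751 and 3004 FPKM in Ets1-/- cells. In the library with H2-Ea-ps, H2-Eb1 was 1.23-fold and 1.19-fold higher than in WT replicates 1 and 2 and 1.09-fold higher than in Ets1-/- replicate 1. The log2 difference of H2-Eb1 was 0.21 (95% confidence interval -0.39 to 0.82, adjusted p = 0.838 from limma) and 0.15 without Ets1-/- replicate 2. For all 3 classical chains the sign depended on the scaling between libraries, since quantile normalization put them at -0.12, -0.11 and -0.03 in the order given here, so no direction is given for them.

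Cd74 (chromosome 18, 60963502 to 60972300, plus strand), the invariant chain, was the most abundant of the set. Its values were 11572 and 12157 FPKM in WT and 12717 and 14863 FPKM in Ets1-/- cells. It ranked between 2 and 5 among all genes in each library, and took 1.38% to 1.72% of all FPKM. Both Ets1-/- libraries lay above the WT libraries, at a ratio of means of 1.16. The log2 difference was 0.21 (standard error 0.34, adjusted p = 0.899 from limma), and it was 0.10 without Ets1-/- replicate 2. Its confidence interval was the widest of the 10. This width depended on the variance model, since without the mean trend the standard error was 0.15 for Cd74 and 0.24 for Ciita.

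**Figure D3:**
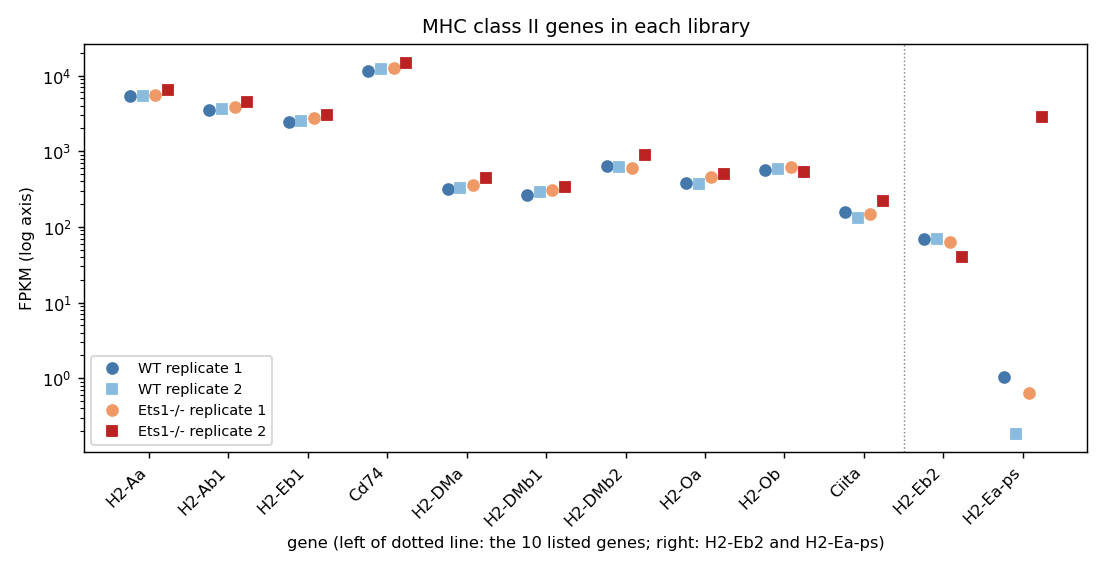
FPKM on a log axis (y axis) of each class II gene (x axis) in the 2 WT libraries (blue) and the 2 Ets1-/- libraries (orange and red), 1 point per library. The 4 points of each listed gene lie close together from Cd74 at 11572 FPKM or more down to Ciita at 220.0 FPKM or less, and H2-Ea-ps is high in Ets1-/- replicate 2 only.

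The peptide editor and its brake were expressed at lower levels, from 265 to 887 FPKM. H2-DMa (chromosome 17, 34272127 to 34276046, plus strand), the alpha chain of H2-DM, was at 317 and 326 FPKM in WT and at 355 and 444 FPKM in Ets1-/- cells. The genotypes did not overlap, with a log2 difference of 0.30 (95% confidence interval -0.18 to 0.79, adjusted p = 0.639 from limma). Without Ets1-/- replicate 2 the value was 0.14.

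The beta chains of H2-DM come from neighbouring genes of the same strand. H2-DMb1 (34290017 to 34297168) was at 265 and 292 FPKM in WT and at 307 and 333 FPKM in Ets1-/- cells, a log2 difference of 0.20 (adjusted p = 0.746 from limma) that was 0.14 without Ets1-/- replicate 2. H2-DMb2 (34280252 to 34288498) was at 637 and 624 FPKM in WT and at 602 and 887 FPKM in Ets1-/- cells. For H2-DMb2 the Ets1-/- libraries lay on either side of the WT libraries, and the log2 difference of 0.21 (adjusted p = 0.849 from limma) became -0.07 without Ets1-/- replicate 2. The annotated transcripts of H2-DMb1 and H2-DMb2 share 365 stretches of 50 bases, which are 27.1% of those of H2-DMb1 and 24.6% of those of H2-DMb2, so the split of reads between them is uncertain. No other pair among these genes and H2-Eb2 shared such a stretch.

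H2-Oa and H2-Ob, the chains of the H2-DM inhibitor, differed from each other in pattern. H2-Oa (chromosome 17, 34229285 to 34232179, plus strand) was at 375 and 373 FPKM in WT and at 451 and 494 FPKM in Ets1-/- cells, without overlap. It had the largest log2 difference of the 10 genes, 0.34 (standard error 0.17, 95% confidence interval -0.10 to 0.77), and the smallest adjusted p, 0.523 from limma, with 0.27 without Ets1-/- replicate 2. H2-Ob (chromosome 17, 34375848 to 34390850, plus strand) was at 573 and 586 FPKM in WT and at 621 and 536 FPKM in Ets1-/- cells. The Ets1-/- libraries of H2-Ob enclosed those of WT, and its log2 difference was -0.01 (95% confidence interval -0.48 to 0.47, adjusted p = 0.998 from limma) and 0.10 without Ets1-/- replicate 2. H2-Ob was the only one of the 10 genes that was lowest in Ets1-/- replicate 2.

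Ciita (chromosome 16, 10480237 to 10527657, plus strand), the coactivator of the set, had the lowest level and the widest spread between replicates. It was at 157 and 132 FPKM in WT and at 148 and 220.0 FPKM in Ets1-/- cells. Ets1-/- replicate 1 lay between the WT libraries and Ets1-/- replicate 2 above them. The log2 difference of 0.32 (95% confidence interval -0.29 to 0.94, adjusted p = 0.704 from limma) rested on that library, being 0.04 without it and 0.61 without Ets1-/- replicate 1.

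Across the set, 7 of the 10 genes had both Ets1-/- libraries above both WT libraries, beside 19.4% of all genes tested, and 0 had both below, beside 22.2%. Among the 856 tested genes with a mean of at least 100 FPKM, a level that all 10 genes exceeded, these shares were 31.9% and 11.8%. Ets1-/- replicate 1 alone lay above both WT libraries for 8 of the 10 genes, beside 47.5% of those 856 genes. The 3 that overlapped were H2-DMb2, H2-Ob and Ciita. The highest library was Ets1-/- replicate 2 for 9 of the 10 genes, beside 33.8% of all genes tested and 48.0% of the same 856 genes. These genes share their libraries and, apart from Cd74 and Ciita, a stretch of chromosome 17, so they are not independent of each other. Without Ets1-/- replicate 2 the median log2 difference of the 10 genes was 0.11, and with quantile normalization it was 0.07. The WT replicates agreed closely, with a median absolute log2 difference of 0.04 over the 10 genes, and the Ets1-/- replicates differed by 0.22, beside 0.13 and 0.26 over all genes tested.

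The order of the mean levels was the same in both genotypes. On the FPKM scale, which is per length, Cd74 was followed by H2-Aa, H2-Ab1, H2-Eb1, H2-DMb2, H2-Ob, H2-Oa, H2-DMa, H2-DMb1 and Ciita by the group means. In WT each gene lay above the next in both libraries. In Ets1-/- cells H2-DMb2 and H2-Ob did not separate, and all the other neighbours did. In Ets1-/- replicate 1 H2-Ob, at 621 FPKM, was above H2-DMb2, at 602 FPKM. The widest step was from H2-Eb1 to H2-DMb2, 3.94-fold in WT and 3.87-fold in Ets1-/- cells. Together the 10 genes took 3.50% and 3.08% of all FPKM in the WT libraries and 2.97% and 3.68% in the Ets1-/- libraries.

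Ratios between genes of the same library do not change when a library is scaled by a common factor, and some were nearly constant. With 2 libraries against 2 an exact two-sided permutation test cannot go below p = 0.33, so the ratios are given as values. Cd74 stood at 3.29 and 3.34 times H2-Ab1 in WT and at 3.29 and 3.32 times in Ets1-/- cells, so the invariant chain and the I-A beta chain kept the same proportion in all 4 libraries. H2-Aa was at 1.54 and 1.49 times H2-Ab1 in WT and at 1.43 and 1.45 times in Ets1-/- cells, which did not overlap (exact permutation p = 0.33), and the log2 difference was -0.07, or -0.081 without Ets1-/- replicate 2. H2-DMa was at 0.352 and 0.355 times the sum of H2-DMb1 and H2-DMb2 in WT and at 0.391 and 0.364 times in Ets1-/- cells (exact permutation p = 0.33), a log2 difference of 0.09 that was 0.14 without Ets1-/- replicate 2. H2-DMb1 was at 0.417 and 0.467 times H2-DMb2 in WT and at 0.510 and 0.375 times in Ets1-/- cells, so the Ets1-/- values enclosed those of WT.

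The proportion of the H2-O chains moved more. H2-Oa was at 0.655 and 0.635 times H2-Ob in WT and at 0.727 and 0.923 times in Ets1-/- cells, without overlap (exact permutation p = 0.33), a log2 difference of 0.34 that was 0.17 without Ets1-/- replicate 2. H2-DMa was at 0.846 and 0.874 times H2-Oa in WT and at 0.787 and 0.899 times in Ets1-/- cells, which overlapped. H2-Ab1 was at 22.3 and 27.6 times Ciita in WT and at 26.1 and 20.3 times in Ets1-/- cells, which also overlapped. Set against another abundant B cell gene, Cd79a, which encodes a signaling chain of the B cell receptor, H2-Ab1 was at 1.83 and 1.77 times in WT and at 2.75 and 2.73 times in Ets1-/- cells. This ratio did not overlap (exact permutation p = 0.33) and differed by 0.61 on the log2 scale. Cd79a itself was at 1923 and 2051 FPKM in WT and at 1407 and 1639 FPKM in Ets1-/- cells, without overlap. Its log2 difference was -0.39 (adjusted p = 0.608 from limma), beside 0.22 for H2-Ab1, so both genes enter the ratio. The paper lists Cd79a too among earlier described Ets1 targets, so it is not a neutral reference.

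H2-Eb2 (chromosome 17, 34462610 to 34477174, plus strand), a further beta chain gene between H2-Eb1 and H2-Ea-ps, was at 68.8 FPKM in both WT libraries and at 62.4 and 39.8 FPKM in Ets1-/- cells. Both Ets1-/- values were below those of WT, and the lower one came from the library with H2-Ea-ps. Its log2 difference was -0.46 (95% confidence interval -1.07 to 0.15, adjusted p = 0.543 from limma) and -0.14 without Ets1-/- replicate 2.

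The factors that act on class II promoters showed no call either. Of 10 such genes, 0 were called, beside the same 1.70% of all genes. Of them 1, Rfx5, had an unadjusted p under 0.05, beside 13.3% of all genes tested. The median of the list was a log2 difference of -0.15. Rfx5, the DNA-binding subunit of the RFX complex on the X box, was at 40.03 and 36.8 FPKM in WT and at 57.2 and 63.7 FPKM in Ets1-/- cells. The genotypes were apart by more than the spread between replicates, at a log2 difference of 0.64 (standard error 0.14, adjusted p = 0.127 from limma), and the value was 0.56 without Ets1-/- replicate 2. The other subunits, Rfxap and Rfxank, overlapped between the genotypes. Of NF-Y, the complex on the Y box, Nfyc had a log2 difference of 0.05 (adjusted p = 0.960 from limma). Nfya was at 31.4 and 31.9 FPKM in WT and at 24.8 and 27.6 FPKM in Ets1-/- cells (log2 difference -0.27, adjusted p = 0.532 from limma). Nfyb was at 17.6 and 17.3 FPKM in WT and at 15.9 and 11.7 FPKM in Ets1-/- cells (log2 difference -0.33, adjusted p = 0.569 from limma). For Nfya and Nfyb the Ets1-/- libraries lay below those of WT without overlap, and for Nfyc the genotypes overlapped.

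Among 10 genes listed as regulators of Ciita or of the B cell states in which it is on or off, 0 were called and 3 had an unadjusted p under 0.05, at a median log2 difference of 0.25. Zbtb32, a zinc finger repressor that can silence Ciita together with Blimp1, was at 1.49 and 2.15 FPKM in WT and at 4.44 and 6.48 FPKM in Ets1-/- cells, a log2 difference of 1.19 (adjusted p = 0.0893 from limma). Zbtb32 was called with a stricter filter of at least 1 FPKM in all libraries (adjusted p = 0.0303 from limma). Prdm1, which encodes Blimp1, was at 0.580 and 0.672 FPKM in WT and at 1.67 and 1.48 FPKM in Ets1-/- cells (log2 difference 0.66, adjusted p = 0.150 from limma). At such low levels the value depends on the pseudocount, and with 0.1 in place of 1 the log2 difference of Prdm1 was 1.21. The paper, by Cuffdiff, lists Prdm1 as upregulated in Ets1-/- cells, and its qPCR of sorted follicular B cells went the same way. Both repressor genes were thus at low levels, with the Ets1-/- libraries above those of WT. Foxo1, a forkhead factor of resting lymphocytes, was at 51.9 and 51.0 FPKM in WT and at 33.6 and 37.6 FPKM in Ets1-/- cells (log2 difference -0.52, adjusted p = 0.180 from limma). Irf4, an interferon regulatory factor of activated B cells and plasma cells, had the most negative value of the list. It was at 47.3 and 73.4 FPKM in WT and at 45.2 and 23.0 FPKM in Ets1-/- cells, without overlap (log2 difference -0.85, adjusted p = 0.444 from limma). Irf8, an interferon regulatory factor of B cells, had a log2 difference of 0.42 (adjusted p = 0.383 from limma). Pax5, the B cell identity factor, had a log2 difference of 0.08 (adjusted p = 0.943 from limma).

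**Figure D4:**
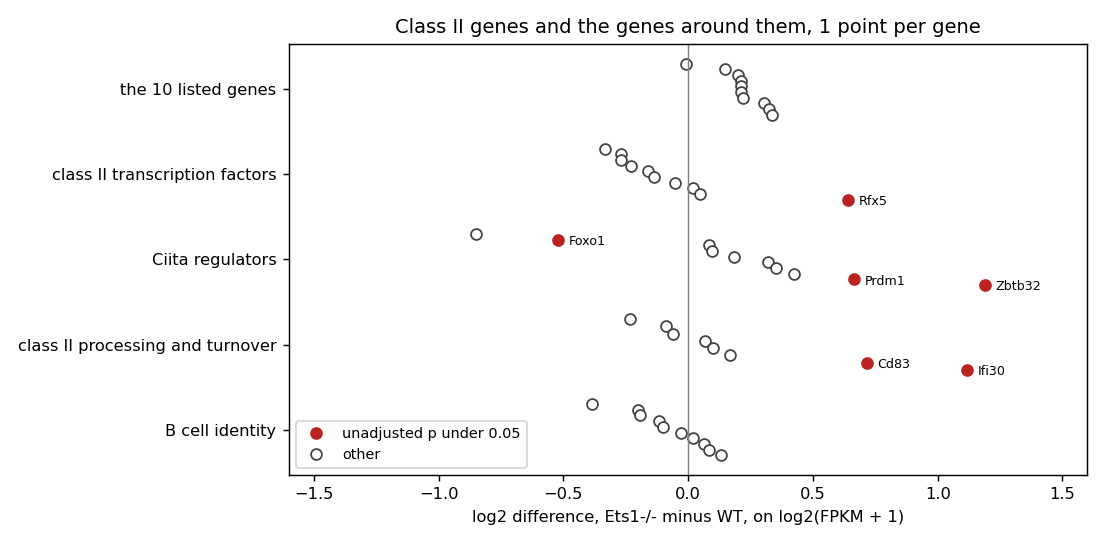
Log2 difference of Ets1-/- against WT on the log2(FPKM + 1) scale (x axis) for the 10 class II genes and 4 further gene lists (y axis), 1 point per gene, with genes at an unadjusted p under 0.05 filled in red and named. The class II genes span -0.01 to 0.34 and none is filled, while Ifi30 and Zbtb32 lie furthest to the right.

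Of the genes that process antigen for class II or control its surface time, 8 of 10 could be followed, as spreadsheet conversion had changed the symbols March1 and March8 to dates. None, 0 of 8, was called, beside 1.70% of all genes tested. An unadjusted p under 0.05 was found for 2, beside 13.3% of all genes tested, and the median log2 difference was 0.08. Ifi30, which encodes the reductase GILT that opens disulfide bonds of antigens in endosomes, was at 270.45 and 268 FPKM in WT and at 645 and 530.1 FPKM in Ets1-/- cells. Both Ets1-/- values were about 2-fold above those of WT, at a log2 difference of 1.12 (standard error 0.18, 95% confidence interval 0.64 to 1.59, adjusted p = 0.0652 from limma), just above the p threshold. Ifi30 was called under some other settings, with an adjusted p of 0.0333 from limma where at least 1 FPKM was required in all libraries. The paper, which used Cuffdiff on these libraries, lists Ifi30 as upregulated in Ets1-/- cells. Cd83, whose product keeps class II molecules on the surface by opposing their ubiquitination, was at 156 and 189.7 FPKM in WT and at 276 and 290.1 FPKM in Ets1-/- cells (log2 difference 0.72, adjusted p = 0.154 from limma). Ctss, the protease cathepsin S that trims the invariant chain, was at 465 and 455 FPKM in WT and at 421 and 461 FPKM in Ets1-/- cells, overlapping between the genotypes at an adjusted p of 0.955 from limma. Emr1 and Cd209a were higher in the same Ets1-/- libraries as Ifi30, and their part in it was not tested.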

How the data were processed

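The authors aligned RNA-seq reads of sorted follicular B cells to mm9 with TopHat2 (version 2.0.13 per the submitters' processing notes), ran Cuffdiff, and the deposited FPKM values, 1 file for each library, are already scaled to gene length and library size. The annotation, the Cuffdiff version and its scaling between libraries are not given in the sources used here. Each file lists 23309 entries, of which 4 were dropped because their symbol occurs more than 1 time. Positions came from GENCODE M1 (same build, 90.8% of genes matched by symbol) and promoters from RefSeq (GRCm38.p6). Genes whose mean reached 1 FPKM in WT or in Ets1-/- cells were compared with limma 3.58.1 in R 4.3.3 on log2(FPKM + 1), with eBayes and a mean trend, and the Benjamini-Hochberg adjustment ran over all 10949 genes. The pseudocount of 1 understates changes of low genes. Ratios were tested by exact permutation in scipy 1.17.1. The fit was tested on simulated data. The 10 genes and the lists, which include markers of plasma cells, marginal zone B cells and germinal center or cycling cells, were chosen with earlier results of these data known. Named were the 10 genes, H2-Eb2 and H2-Ea-ps, genes of the class II regulator and processing lists with an unadjusted p under 0.05 or among the 2 highest of their list, called marker genes, and 5 genes of like pattern. H2-Q2, H2-Q10, H2-M2, Gm8909, Gm11127, Msh5 and Eps8l1, and the markers and list genes named for their level or role, were named after values were seen. The search for genes high or low in 1 library was also added after values were seen. Alternatives covered the pseudocount, the filter, scaling, variance model, minimum fold, replicate block and each replicate left out.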

Additional observations from a re-analysis of the deposited data

How the results depend on the processing

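In all 14 alternatives 0 of the 10 class II genes were called, and 134 of their 140 log2 fold changes kept their sign. The filters, variance models, replicate blocks and minimum fold cannot alter these values, so many of the signs could not turn. Only the pseudocount, the scaling and a left-out library could move the log2 fold changes. Those that turned were, under quantile normalization, H2-Aa (-0.12), H2-Ab1 (-0.11) and H2-Eb1 (-0.028), and with 1 library left out H2-DMb2, which ranged from -0.068 (without Ets1-/- replicate 2) to 0.49, and H2-Ob, which ranged from -0.11 to 0.099 (above 0 without Ets1-/- replicate 2 and without WT replicate 2). Of the ratios, 4 turned sign with 1 library left out, as log2 differences that ranged from -0.016 to 0.0057 for Cd74 to H2-Ab1, from -0.23 to 0.21 for H2-DMb1 to H2-DMb2, from -0.13 to 0.064 for H2-DMa to H2-Oa and from -0.29 to 0.071 for H2-Ab1 to Ciita. Over all genes 186 were called, 75 with every gene above 0 tested, 305 with robust variances, 266 with the replicate number as a block, and between 130 and 144 with 1 library left out. The deviations of same-numbered libraries from the mean of their genotype correlated at -0.21 over genes. The labels give only replicate numbers, and this correlation cannot tell whether same-numbered libraries share a preparation. The crossed pairing as a block, chosen after seeing the data, called 409. Of the promoter, regulator, processing and class II locus genes 0 were called, 2 (Ifi30 and Zbtb32) with at least 1 FPKM required in all libraries or with robust variances, 1 (Ifi30) without the trend, 1 (Zbtb32) with the replicate block, 3 (these and H2-Ea-ps) with the crossed block, and between 0 and 1 (H2-Ea-ps, without Ets1-/- replicate 1) with 1 library left out. The cause was not tested. No read counts were used, and 2 libraries per genotype limit what could be called. The paper's Cuffdiff test of the same libraries called more genes than the limma fit here, among them Ifi30, Prdm1 and Cr2.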

Other observations

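Genes with a pattern like that of the classical chains were looked for by the root mean square difference, over the 4 libraries, between the deviations of a gene from its own mean on the log2(FPKM + 1) scale and the mean deviations of H2-Aa, H2-Ab1, H2-Eb1 and Cd74. The 5 closest of 10860 tested genes outside the lists were Wbp2, Glod4, Dcp1b, Eci2 and Mapkapk2, at 0.0106 to 0.0129. Wbp2, the closest, was at 66.7 and 69.6 FPKM in WT and at 72.9 and 84.8 FPKM in Ets1-/- cells. The mean deviations compared with ran from -0.12 in WT replicate 1 to 0.20 in Ets1-/- replicate 2, and 1588 genes came within 0.1 of them, so likeness over 4 libraries is a description only.

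Plasma cell markers, 6 genes with 0 called, summed to 301 and 336 FPKM in WT and to 372 and 426 FPKM in Ets1-/- libraries. Marginal zone markers, 5 genes with 0 called, summed to 197 and 232 FPKM in WT and to 153 and 97.0 FPKM in Ets1-/- libraries. Cr2, the complement receptor CD21 that the sort also used, accounted for 30.0 FPKM in Ets1-/- replicate 2 and 65.1 FPKM in Ets1-/- replicate 1. The paper, by Cuffdiff, lists Cr2 as downregulated in Ets1-/- cells. Germinal center and cycling markers, 6 genes with 0 called, summed to between 45.7 and 65.9 FPKM. Each of these counts of 0 stands beside 1.70% of all genes tested.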
